A study of Mus musculus with 9 samples.

Results

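Embryonic stem cells (ESC) were compared with germline stem cells (GSC) over all genes measured on a mouse Illumina bead array, with attention to metabolism, signalling, chromatin and the cell surface. The comparison used 6 of the 9 arrays of the study, chosen by their labels alone: 2 ESC arrays against the arrays of GSC lines 1 to 4. It covered 9488 genes. The GSC are cultured stem cells of the adult mouse germline, which the labels call unipotent, with 1 array per line. The ESC are pluripotent cells measured as a duplicate, and the sources used here do not say whether the duplicate came from separate cultures. Strain, genotype, passage and culture medium of either group are not given in the sources used here. The other 3 arrays hold pluripotent lines (gPS), which were not compared here. They did enter the normalization between arrays, the detection filter, the choice of probe and the estimate of the spread. Total RNA (400 ng per sample) was amplified and labelled as biotin cRNA before hybridisation.

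As background, ESC come from the early embryo and renew under leukaemia inhibitory factor (LIF), which acts through gp130 and Stat3. FGF4 made by the cells themselves prepares them to differentiate, and Nodal and BMP signals act on the same balance. GSC, the cultured form of the spermatogonial stem cell, depend on GDNF, which binds Gfra1 and signals through the kinase Ret. Both cell types self-renew and share Pou5f1, but one can form all embryonic tissues and the other forms sperm. ESC are known for a high glycolytic rate and for a dependence on threonine and one-carbon metabolism.

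The 2 ESC arrays had median raw signals of 83.6 and 86.6 with 9943 and 10193 probes detected, and the GSC arrays had medians of 87.4 to 101 with 10853 to 11813 probes detected. All values given are normalized log2 signals, and a difference is the ESC mean minus the GSC mean with its standard error (SE, n = 2 and n = 4 arrays). A gene is called when its Benjamini-Hochberg adjusted p in limma's moderated test is under 0.05. 3 properties of the arrays touch the results. GSC 1 and GSC 3 differed from each other by an SD of 0.21 over genes, less than the ESC pair (0.34); what made them so alike was not tested. GSC 4 lay furthest from the mean of the 4 GSC arrays (SD 0.40, against 0.25 to 0.27 for the others). ESC 1 lay below ESC 2 for 58 of 67 respiratory chain genes and for 39 of 51 cytosolic ribosomal protein genes, with median gaps of -0.74 and -0.39. The SE and p-values rest on a spread pooled within the ESC, GSC and gPS groups and moderated across genes. Variation among the gPS lines therefore enters them, and the spread of the ESC pair may be technical. With so few arrays, their number limits the precision of every value.

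Of the 9488 genes, 2358 were higher in ESC (24.9%) and 2814 were lower (29.7%), so that 54.5% were called and 4316 were not. The difference was at least 1 on the log2 scale for 1466 higher and 1731 lower genes, and at least 3 for 162 and 153. The split depended on the scaling: when arrays were scaled to a common median, 1483 genes were higher and 3915 lower, and the median difference over all genes moved from -0.11 to -0.43. In 280 called genes the signal was detected on both ESC arrays and on no GSC array, and in 703 it was detected on all 4 GSC arrays and on neither ESC array. The lowest detected signal was higher on the ESC arrays (5.20 and 5.12) than on the GSC arrays (4.75 to 4.94). A low signal of the same size could therefore count as detected in GSC and undetected in ESC, so these 2 counts cannot be compared directly. Only 22 called genes had ESC and GSC arrays that overlapped. A fold is that of a gene's brightest probe, and other probes of the same gene mostly gave less: of 84 further probes of 62 called genes named here, 80 had the same sign, 64 were smaller in size and 17 were under 1 on the log2 scale.

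Among the 12 largest differences toward ESC, Dnmt3l, the cofactor of the de novo DNA methyltransferases, was 12.99 and 12.86 in ESC and 5.57, 6.85, 5.63 and 4.30 on GSC lines 1 to 4. It was at least 145-fold higher in ESC (7.34 ± 0.53, adjusted p = 1.78e-06). Such a bound sets each undetected array of the lower group to the gene's own value or, if higher, to the lowest detected value on that array. Bcat1, the cytosolic transaminase of branched-chain amino acids, was at least 84.2-fold higher, and its 2 further probes gave smaller differences of 2.43 and 2.68. Trh, which encodes a hormone precursor of the hypothalamus, was at least 87.5-fold higher and Ckb, brain-type creatine kinase, 66.6-fold higher. The Nodal antagonists Lefty1 and Lefty2 were at least 47.6-fold and 41.0-fold higher. The other 6 genes of the 12 largest were Mylpf, Rhox5, Nanog, Ctnnal1, Gtsf1l and Ooep.

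In the other direction, Dazl, an RNA-binding protein of germ cells, was 12.48, 12.53, 12.38 and 12.01 on the GSC arrays and 4.61 and 4.93 in ESC. It was detected on no ESC array and was at least 146-fold lower (adjusted p = 2.05e-09). The spermatogonial helix-loop-helix factor Sohlh1 differed by at least 97.9-fold in the same direction. Taf7l, a variant in germ cells of a general transcription factor subunit, was at least 107-fold lower. Egr4, an early growth response factor of the GDNF programme, was at least 66.1-fold lower. Tuba3a, an alpha-tubulin of the testis, was 127-fold lower, and all of its 3 further probes fell by 5.73 to 6.96. The other 7 of the 12 largest were Mageb4, Taf9b, Asz1, Hoxb7, Tex13b, Tsc22d3 and Xlr4a.

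Markers of cell identity followed the labels. Their lists were chosen with earlier results of these data known, so the counts are not an independent check of identity. Of 24 tested pluripotency genes, 23 were higher in ESC, none was lower and Tcl1 was not called, with a median difference of 3.39 against -0.11 over all genes. Nanog, a homeodomain factor of the naive state, was 10.42 and 10.58 in ESC and 4.42 to 4.57 in GSC, where no array detected it. Klf2 and Esrrb, 2 factors of the same network, were 29.5-fold and 34.2-fold higher. Pou5f1 (Oct4) was well detected in both cell types, at 12.31 and 12.18 in ESC and 10.59, 9.71, 10.77 and 8.81 on GSC 1 to 4. Sox2 was 9.55 and 9.23 in ESC and varied over GSC lines, from 6.88, 5.65 and 6.95 down to 4.55 on GSC 4, which did not detect it. Of 28 tested genes of undifferentiated spermatogonia and germ cells, 24 were lower in ESC and 2 were higher, with a median of -3.47. The 2 higher genes were Etv5 and Lin28a, both also known from pluripotent cells, and the call for Lin28a was lost in 1 of 20 alternatives (adjusted p from 0.000378 to 0.0524 over them), without ESC 1. Kit and Zbtb16 have no named probe here. In a bulk measurement, fewer cells of a type and less RNA per cell cannot be told apart.

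The promoters of 2 of these germ cell genes are shown because both hold the palindrome CACGTG (an E-box) and both genes were detected on all 4 GSC arrays. Sequences are RefSeq's for GRCm38.p6, mostly upstream of the gene start, 5′ to 3′ on the gene's strand, with CACGTG in capitals. The first is at chrX:134476441-134476740 and the second at chr2:25847199-25847498, both on the minus strand.
Taf7l: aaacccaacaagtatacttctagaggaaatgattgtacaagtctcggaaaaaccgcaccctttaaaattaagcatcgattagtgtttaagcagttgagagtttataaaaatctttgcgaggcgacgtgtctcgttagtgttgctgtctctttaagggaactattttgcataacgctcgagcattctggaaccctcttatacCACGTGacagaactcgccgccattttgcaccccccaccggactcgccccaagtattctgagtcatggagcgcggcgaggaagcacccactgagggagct
Sohlh1: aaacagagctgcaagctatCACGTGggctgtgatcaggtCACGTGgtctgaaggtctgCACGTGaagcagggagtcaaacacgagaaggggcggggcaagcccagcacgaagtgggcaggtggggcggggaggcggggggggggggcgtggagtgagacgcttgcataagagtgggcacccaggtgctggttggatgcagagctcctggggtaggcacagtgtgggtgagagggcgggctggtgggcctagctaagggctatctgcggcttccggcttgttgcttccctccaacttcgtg
The Sohlh1 window holds 3 copies and the Taf7l window 1. Of the 22 germ cell genes with a promoter in the table, 6 held the motif (either strand), against 12.2% of 7127 tested genes and 7.15% of 32851 promoters. The share is given as a description of these windows only. The share of pluripotency genes was 2 of 15.

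**Figure D1:**
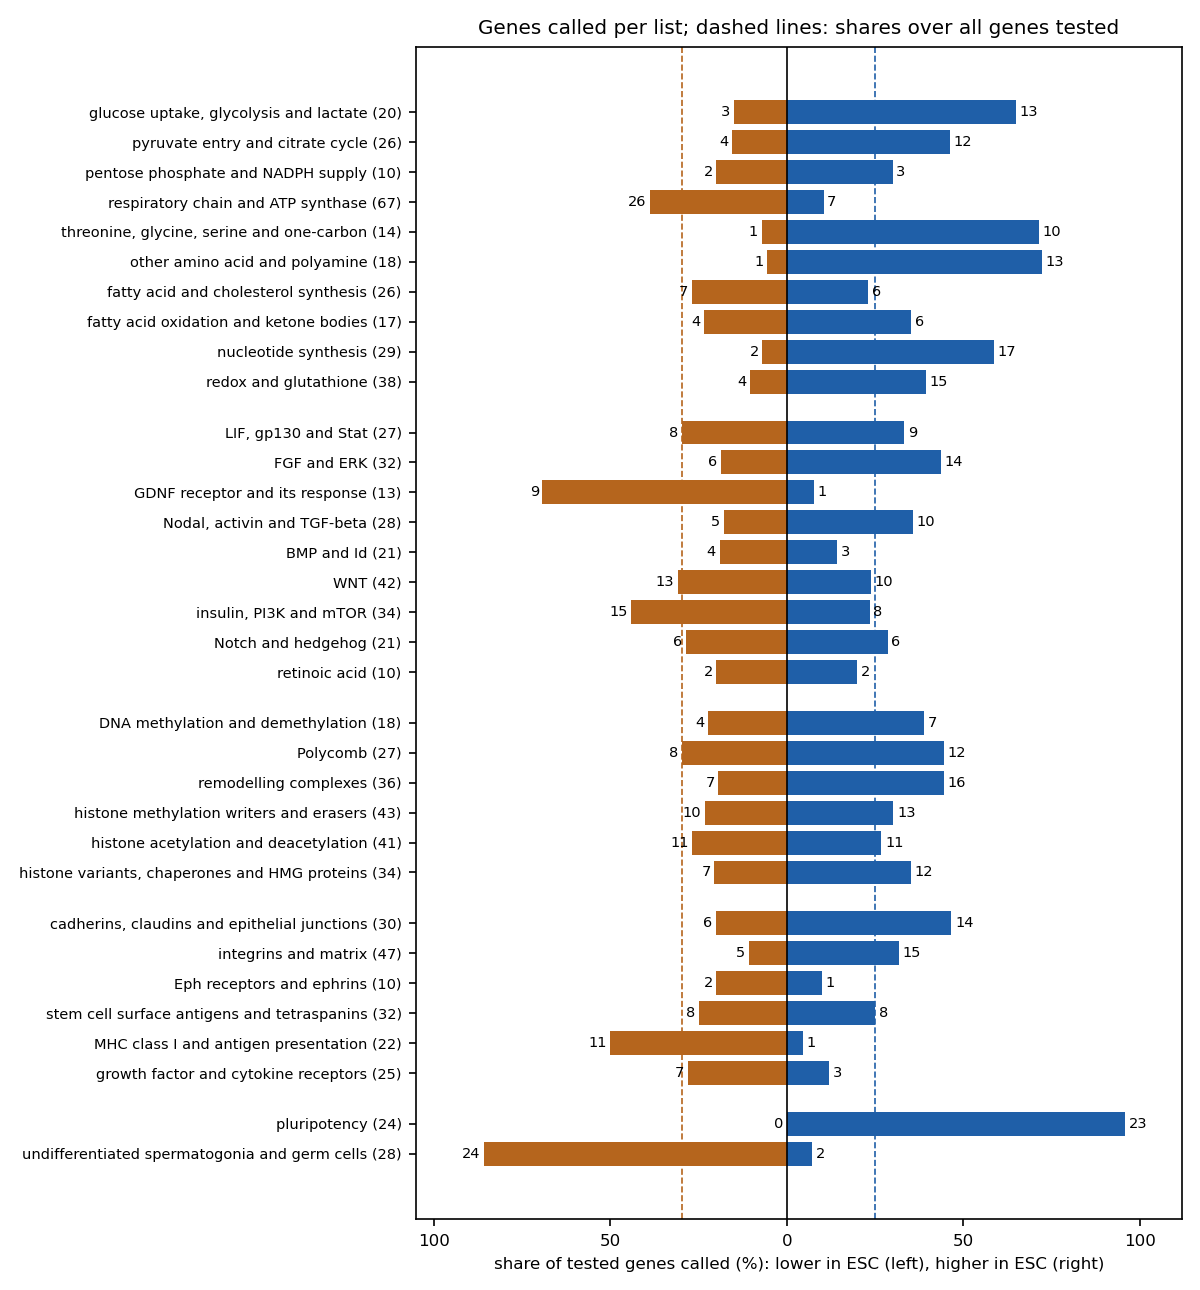
Bars give, for each list, the share of its tested genes (number in brackets) that were higher in ESC (right) or lower (left), in percent, with the count at the bar's end. Dashed lines mark the shares over all 9488 genes, 24.9% higher and 29.7% lower: glycolysis, amino acid and nucleotide lists lie past the right line, and the GDNF and MHC lists past the left line.

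Some metabolic lists were one-sided. Of 263 tested metabolic genes, 101 were higher in ESC, 54 were lower and 108 were not called, with a median of 0.20. Median scaling gave 81 higher and 69 lower, with a median of -0.09. Among them 6 were called higher and detected on both ESC arrays and on no GSC array, and 2 lower the other way round, against 280 and 703 of all 9488 genes.

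In glucose uptake, glycolysis and lactate production, 13 of 20 tested genes were higher in ESC and 3 were lower, with a median of 1.39. The count stood at 13 and 3 with median scaling and without GSC 4, and at 11 and 3 without GSC 1 and GSC 3. The median difference was 1.34 without ESC 1 and 1.44 without ESC 2. The route starts with the glucose transporters. Slc2a3 (Glut3) was 12.61 and 12.33 in ESC and 9.90, 10.27, 9.95 and 9.62 in GSC, a 5.81-fold difference (adjusted p = 1.88e-05). Slc2a1 (Glut1) was 3.07-fold higher. Hexokinase 2 (Hk2), the first enzyme, was 6.77-fold higher, at 11.66 and 11.60 against 8.17 to 9.58. Pfkl, the liver-type phosphofructokinase that commits sugar to glycolysis, was 10.3-fold higher on its brightest probe, but a further probe differed by only 0.75. Tpi1, triosephosphate isomerase, differed by 2.89 ± 0.45, and its 2 further probes by 0.27 and 3.09. Ldha, which turns pyruvate to lactate, was 13.36 and 12.97 in ESC and 10.63, 11.01, 10.74 and 8.77 on GSC 1 to 4 (2.87 ± 0.52, adjusted p = 0.000846). Both ESC arrays lay above every GSC array for each of these genes, and GSC 4 was the lowest array for Slc2a3, Hk2, Pfkl, Tpi1 and Ldha. Of the middle steps, Gapdh, Pgk1 and Pgam1, chosen after their values were seen, differed by 1.36, 1.43 and 1.67. Pyruvate kinase (Pkm) differed by 1.03 and was not called. The 3 lower genes were Hk1, Pfkm and Aldoc, each a relative of an enzyme that was higher. Ldhb, Gpi1 and Eno1 have no named probe here.

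The promoters of Ldha and its testis relative Ldhc are shown because these genes lie near each other on chromosome 7 and were called in opposite directions. Capitals mark ACGTG on either strand, the core of the site that hypoxia-inducible factors are known to bind. The windows are at chr7:46845554-46845853 and chr7:46861013-46861312 of GRCm38.p6, both on the plus strand (RefSeq). Each gene has 2 promoters in the table, and the other Ldha and Ldhc windows hold no match.
Ldha: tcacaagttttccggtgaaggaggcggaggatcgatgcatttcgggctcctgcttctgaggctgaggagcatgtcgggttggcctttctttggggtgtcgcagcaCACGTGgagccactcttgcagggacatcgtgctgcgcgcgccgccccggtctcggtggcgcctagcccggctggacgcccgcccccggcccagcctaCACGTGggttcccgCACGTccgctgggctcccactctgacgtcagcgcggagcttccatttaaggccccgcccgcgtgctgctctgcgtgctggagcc
Ldhc: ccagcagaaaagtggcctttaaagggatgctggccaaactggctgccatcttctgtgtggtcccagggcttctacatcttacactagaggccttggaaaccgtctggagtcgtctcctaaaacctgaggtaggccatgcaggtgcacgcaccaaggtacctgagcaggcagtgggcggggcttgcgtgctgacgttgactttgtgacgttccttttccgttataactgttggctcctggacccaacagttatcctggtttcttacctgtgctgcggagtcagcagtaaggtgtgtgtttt
The Ldha window holds 3 separate matches and the Ldhc window none. Of 19 tested glycolytic genes with a promoter in the table, 14 held ACGTG, against 30.0% of 7127 tested genes and 19.6% of all promoters. CACGTG, which contains it on both strands, was found in 4 of the 19. ACGTG was found in windows of genes higher in ESC, such as Ldha and Hk2, and of the lower genes Hk1, Pfkm and Aldoc. In all, 7 words were searched. Besides these 2 they were TCACGTG (3 of 19), GCGGGAA (3), TTTGCAT (1), ATTTGCAT (1) and TATAAA (2), with 7.21%, 9.95%, 4.28%, 1.68% and 8.70% of tested genes.

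**Figure D2:**
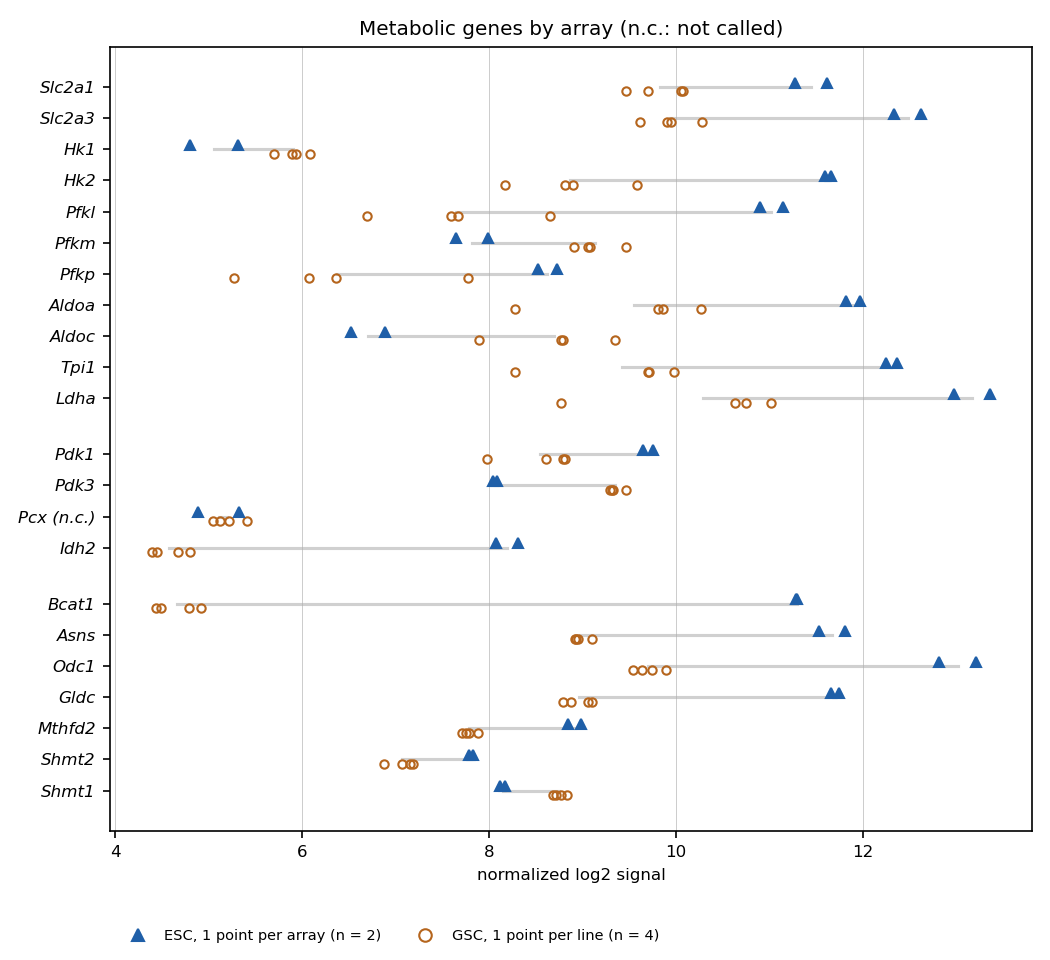
Normalized log2 signal of named genes of glycolysis, pyruvate entry and amino acid metabolism, with 1 triangle per ESC array and 1 circle per GSC line; grey lines join the group means. Ldha sits at 13.36 and 12.97 in ESC and between 8.77 and 11.01 in GSC, while Hk1, Pfkm, Aldoc, Pdk3 and Shmt1 lie the other way round.

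Among genes of pyruvate entry and the citrate cycle, 12 of 26 were higher in ESC, 4 lower and 10 not called (median 0.43). With median scaling 10 were higher and 9 lower (median -0.0050), so the excess of higher genes was lost. Idh2, the mitochondrial NADP-dependent isocitrate dehydrogenase, was 8.08 and 8.31 in ESC and 4.40 to 4.80 in GSC, which detected it on no array, so it was at least 10.2-fold higher. Idh3a, the catalytic subunit of the NAD-dependent enzyme, was at least 6.81-fold higher. Control of pyruvate dehydrogenase differed by isoform. Pdk1, a kinase that switches the complex off, was 2.23-fold higher, whereas its relative Pdk3 was 2.44-fold lower and the phosphatase Pdp1, which switches it on, at least 4.55-fold lower. Pcx, pyruvate carboxylase, was near the detection limit in both groups and was not called. In the pentose phosphate list 3 of 10 genes were higher and 2 lower. Tkt, transketolase, was 6.27-fold higher and Rpia, ribose-5-phosphate isomerase, was 7.11-fold lower.

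The respiratory chain and ATP synthase list went the other way, but its count rested on 1 array. Of 67 tested genes, 26 were lower in ESC and 7 were higher (median -0.42). The mean over the list was 9.48 on ESC 1 and 10.12 on ESC 2, against 10.16 to 10.36 on the GSC arrays. Without ESC 1, 8 genes were lower and 8 higher. Without ESC 2, 33 were lower and 2 higher, and without GSC 1 and GSC 3 the counts were 15 and 2. Cytosolic ribosomal proteins moved with it: their mean over 51 genes was 11.95 on ESC 1 and 12.33 on ESC 2. What set ESC 1 apart was not tested. Cox8c, a testis form of a cytochrome oxidase subunit, was 7.81 to 8.22 in GSC and 4.39 and 5.38 in ESC, at least 6.55-fold lower. Ndufa13, a complex I subunit, was 10.75 and 11.88 in ESC and 12.78 to 13.04 in GSC. Atp5a1, the alpha subunit of ATP synthase, was higher on both ESC arrays, at 8.72 and 8.71 against 7.41 to 7.87. Cox7a1, the heart and muscle form of another oxidase subunit, was called lower although ESC 2 (7.94) lay above GSC 2 (7.70). Its call was lost in 7 of 20 alternatives (adjusted p from 0.00545 to 0.38 over them), and without ESC 1 the difference was -0.57.

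**Figure D3:**
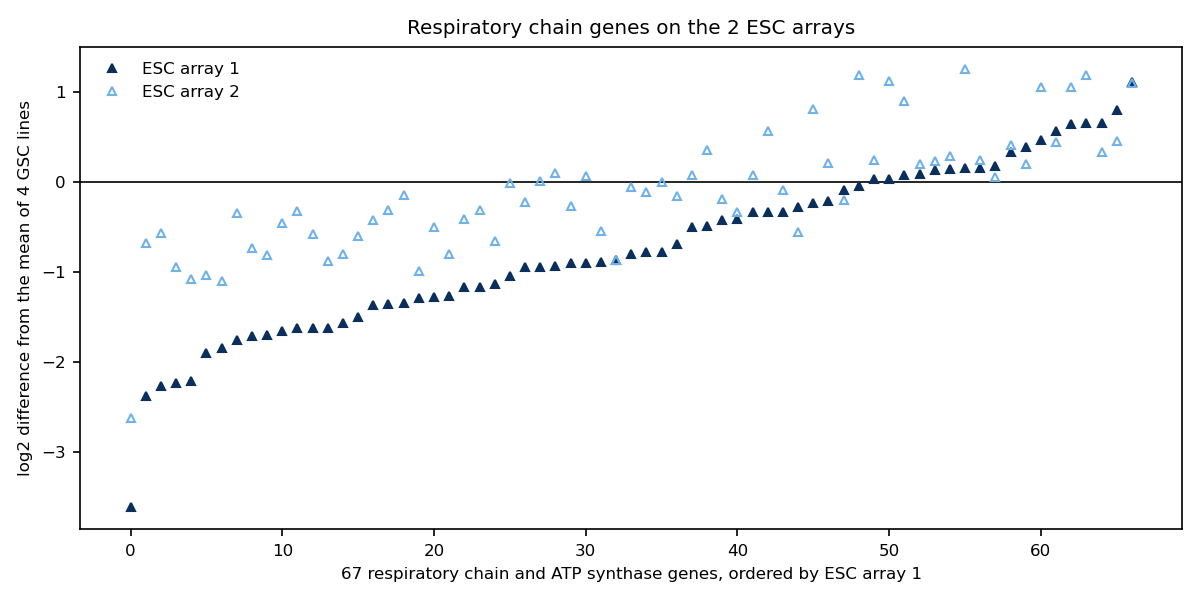
Each of the 67 respiratory chain and ATP synthase genes is placed by its rank on ESC array 1, and triangles give the log2 difference of each ESC array from the mean of the 4 GSC lines. The median was -0.80 on ESC 1 (filled) and -0.14 on ESC 2 (open).

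Amino acid genes were mostly higher in ESC. In the list for threonine, glycine, serine and one-carbon units, 10 of 14 genes were higher in ESC and 1 was lower, with a median of 1.10. The lower gene was Shmt1, whose call was lost in 12 of 20 alternatives. Median scaling gave 9 higher and 3 lower, with a median of 0.74. Gldc, the glycine decarboxylase that feeds one-carbon units in mitochondria, was 11.74 and 11.65 in ESC and 9.06, 8.88, 8.79 and 9.10 in GSC, 6.67-fold higher (adjusted p = 2.48e-06). Mthfd2, the mitochondrial folate enzyme, was 2.19-fold higher. Cth, which makes cysteine from cystathionine, was detected on no GSC array and at least 5.26-fold higher. Phgdh, the entry to serine synthesis, was not called (-0.72 ± 0.30, adjusted p = 0.0659), and it passed as lower with median scaling and without GSC 4. Tdh, threonine dehydrogenase, has no named probe here. Among other amino acid and polyamine genes, 13 of 18 were higher and 1 lower (median 1.55). Bcat2, the mitochondrial partner of Bcat1, was 16.9-fold higher, at 9.53 and 9.64 against 5.31 to 5.73. Asns, asparagine synthetase, was 6.47-fold higher, and 2 further probes gave 2.77 and 2.52. Odc1, the first enzyme of polyamine synthesis, was 13.20 and 12.81 in ESC and 9.54 to 9.89 in GSC (9.89-fold). The 1 lower gene was Bckdha, a subunit of the branched-chain keto acid dehydrogenase, with a small difference (-0.60 ± 0.19) whose call was lost in 2 of 20 alternatives (adjusted p from 0.00114 to 0.159 over them).

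Nucleotide synthesis followed: 17 of 29 genes were higher and 2 lower, with a median of 0.78. Rrm2, the small subunit of ribonucleotide reductase, was 10.1-fold higher and a further probe differed by 4.07. Pnp, purine nucleoside phosphorylase, was 10.3-fold higher. Tk1, thymidine kinase, also a cell cycle gene, was 9.52 and 9.54 in ESC, inside the GSC range of 8.94 to 9.56. The lower genes Impdh1 and Dctd were both sensitive to the processing. The Impdh1 call was lost in 1 of 20 alternatives (adjusted p from 0.000192 to 0.638 over them), with its probes averaged. The Dctd call was lost in 4 of 20 alternatives (adjusted p from 0.000993 to 0.0844 over them).

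Lipid genes depended on the scaling. In fatty acid and cholesterol synthesis 6 of 26 were higher and 7 lower, and median scaling gave 5 and 12 with a median of -0.59. In fatty acid oxidation 6 of 17 were higher and 4 lower, and median scaling gave 3 and 4. Ebp, a sterol isomerase, was 10.2-fold higher and Elovl6, a fatty acid elongase, 4.35-fold higher, while Dhcr7, the last step of cholesterol synthesis, was 3.12-fold lower. Insig2, the sterol sensor partner, was called lower on 1 probe and had the opposite sign on another (0.94), and its call was lost with probes averaged. Hmgcs1 was not called, with both ESC arrays (12.23 and 11.91) inside the GSC range. Cpt2 and Acadvl, both needed to oxidise long-chain fatty acids, were each 3.23-fold lower, whereas Echs1, enoyl-CoA hydratase, was 3.98-fold higher. Bdh1, a ketone body enzyme, was 4.94-fold higher.

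Redox genes were higher in 15 of 38 cases and lower in 4 (median 0.66), but only 8 were higher without ESC 2, and median scaling gave 9 higher and 8 lower (median 0.11). Gsta4, a glutathione transferase that clears lipid aldehydes, was 10.9-fold higher, and Gpx4, which reduces lipid peroxides, was 3.92-fold higher. A further probe of Gpx4 differed by 1.15. Gstm5, a transferase of the mu class, went the other way, at 10.07 to 10.24 in GSC and 5.58 and 6.12 in ESC (19.4-fold lower). Txnip, the thioredoxin inhibitor that also curbs glucose uptake, was 9.46 to 9.75 in GSC and 5.56 and 5.70 in ESC, 15.2-fold lower (adjusted p = 5.18e-05). The solute carriers as a whole were balanced, with 51 of 160 higher and 48 lower. Slc7a3, a transporter of cationic amino acids, and Slc6a9, a glycine transporter, were chosen after their values were seen. Slc7a3 was 11.09 and 10.84 in ESC against 5.27 to 5.99 in GSC, and Slc6a9 was 4.90 and 5.12 against 7.97 to 8.73.

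Of 227 signalling genes, 62 were higher, 68 lower and 97 not called, and median scaling gave 50 and 91. In the GDNF list 9 of 13 tested genes were lower in ESC and 1 was higher (median -1.43). Ret was 9.29, 9.89, 9.35 and 8.39 on GSC 1 to 4 and undetected on both ESC arrays (4.96 and 4.57), at least 16.8-fold lower (adjusted p = 2.08e-06). The coreceptor Gfra1 had low signal on this array, 4.85 to 5.33 in GSC, and was not called. Of the response genes, Egr4 was among the largest differences of all, and Bcl6b was not called (-0.70 ± 0.30, adjusted p = 0.0717), though it passed as lower with median scaling and without GSC 4. Etv5, an ETS factor downstream of both GDNF and FGF, was the 1 gene of the list higher in ESC, at 8.85 and 8.64 against 6.95, 7.39, 6.78 and 5.18.

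FGF and ERK genes were higher in 14 of 32 cases and lower in 6 (median 0.59), and median scaling gave 13 and 8. Fgf4, the FGF that ESC make, was 8.73 and 8.21 in ESC and undetected in GSC, at least 12.3-fold higher. Fgf17 was at least 20.7-fold higher, and a further probe differed by 1.89. The feedback inhibitors Dusp4, an ERK phosphatase, and Spry4 were at least 14.5-fold and 6.51-fold higher, and the further probes of Dusp4 gave 1.19 and 2.48. Dusp6, another ERK phosphatase, ranged from 7.16 to 10.48 over GSC lines and was not called on its brightest probe (adjusted p = 0.117). Its 2 further probes differed by 2.26 ± 0.44 and 2.25 ± 0.45, and it was called higher with probes averaged (1.98) and without GSC 1 and GSC 3 (2.53). Egr1 and Fos, immediate-early genes, were lower: Egr1 differed by -1.72 ± 0.39, and Fos by -2.07 ± 0.78 with GSC lines from 7.62 to 10.33. The call for Fos was lost in 11 of 20 alternatives (adjusted p from 0.0108 to 0.241 over them). The receptor Fgfr1 was not called on its brightest probe (-0.38 ± 0.37), whereas a further probe differed by 1.02 ± 0.27.

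In the LIF list 9 of 27 were higher and 8 lower (7 and 10 with median scaling). The receptor chains Lifr and Il6st (gp130) and the feedback gene Socs3 were not called, with overlapping arrays for each. Stat3 was lower, at 8.92 and 8.42 against 9.93, 10.69, 9.35 and 10.08, and 2 further probes gave -1.45 and -1.43. Its call was lost in 1 of 20 alternatives (adjusted p from 0.000729 to 0.0651 over them), without ESC 2. Jak2, a kinase bound to cytokine receptors, was at least 6.45-fold lower, with a further probe at -2.25. Stat5a was at least 2.37-fold lower, with a further probe at -0.63. Socs2 was 10.5-fold higher, at 10.33 and 9.89 against 6.37 to 7.04. Stat4 was at least 6.25-fold higher on its brightest probe, and a further probe differed by 1.35.

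Nodal and TGF-beta genes were higher in 10 of 28 cases and lower in 5 (9 and 7 with median scaling). Nodal itself was 8.48 and 8.46 in ESC and 4.24 to 4.33 in GSC, which did not detect it. The receptor Acvr2b was high in both, at 10.60 and 10.40 in ESC and at up to 10.67 in GSC, and was not called. Furin, a protease that matures TGF-beta family ligands, was 4.28-fold lower, and Tgfbr3, a coreceptor, was at least 4.20-fold lower with GSC 4 (5.69) close to ESC and a further probe at -0.52. The Tgfbr3 call was lost in 3 of 19 alternatives (adjusted p from 0.000115 to 0.0664 over them). In the BMP list only 3 of 21 genes were higher and 4 lower (3 and 8 with median scaling). Bmp4 was at least 7.88-fold higher, and Bmp7 at least 4.50-fold lower. Chrd, chordin, an extracellular BMP antagonist, was at least 2.92-fold lower.

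WNT genes were higher in 10 of 42 cases and lower in 13 (median -0.37), and median scaling moved these counts to 7 and 21. Porcn, the acyltransferase that WNT ligands need for secretion, was 12.9-fold higher, and the ligand Wnt7b at least 6.94-fold higher. Their further probes gave smaller differences of 1.59 and 1.46. Tcf7l1, the repressing TCF of ESC, was 10.52 and 10.64 in ESC and 8.03 to 8.42 in GSC, 5.39-fold higher, but a further probe differed by only 0.92 ± 0.39. The receptor Fzd3 was at least 8.27-fold lower and Dkk3, a secreted protein of the Dickkopf family, 4.50-fold lower. Axin2, a target of the pathway, was not called.

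In the insulin, PI3K and mTOR list 15 of 34 genes were lower in ESC and 8 were higher (median -0.17), and median scaling gave 17 and 5. The list held a sharp contrast. Eras, the constitutively active Ras of ESC, was 8.76 and 8.89 in ESC and 4.53 to 4.61 in GSC, at least 15.8-fold higher. Igf1r, the IGF1 receptor, was 7.70 to 8.09 in GSC and 5.33 and 4.75 in ESC, at least 6.59-fold lower. Pik3r3, a regulatory subunit of PI3K, was 17.8-fold lower. Among the IGF-binding proteins, Igfbp2 was 3.85-fold higher and Igfbp6 at least 8.75-fold lower. Notch and hedgehog genes were higher in 6 of 21 cases and lower in 6 (4 and 8 with median scaling). The receptors Notch4 and Notch3 were 5.31-fold and at least 2.60-fold higher, and the target Hes5 and the ligand Jag2 were at least 2.29-fold and 3.61-fold lower. In the retinoic acid list 2 of 10 genes were higher and 2 lower. The receptor Rarg was 4.16-fold higher with a further probe at 0.74, and Crabp1, a retinoic acid binding protein, at least 3.65-fold lower.

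**Figure D4:**
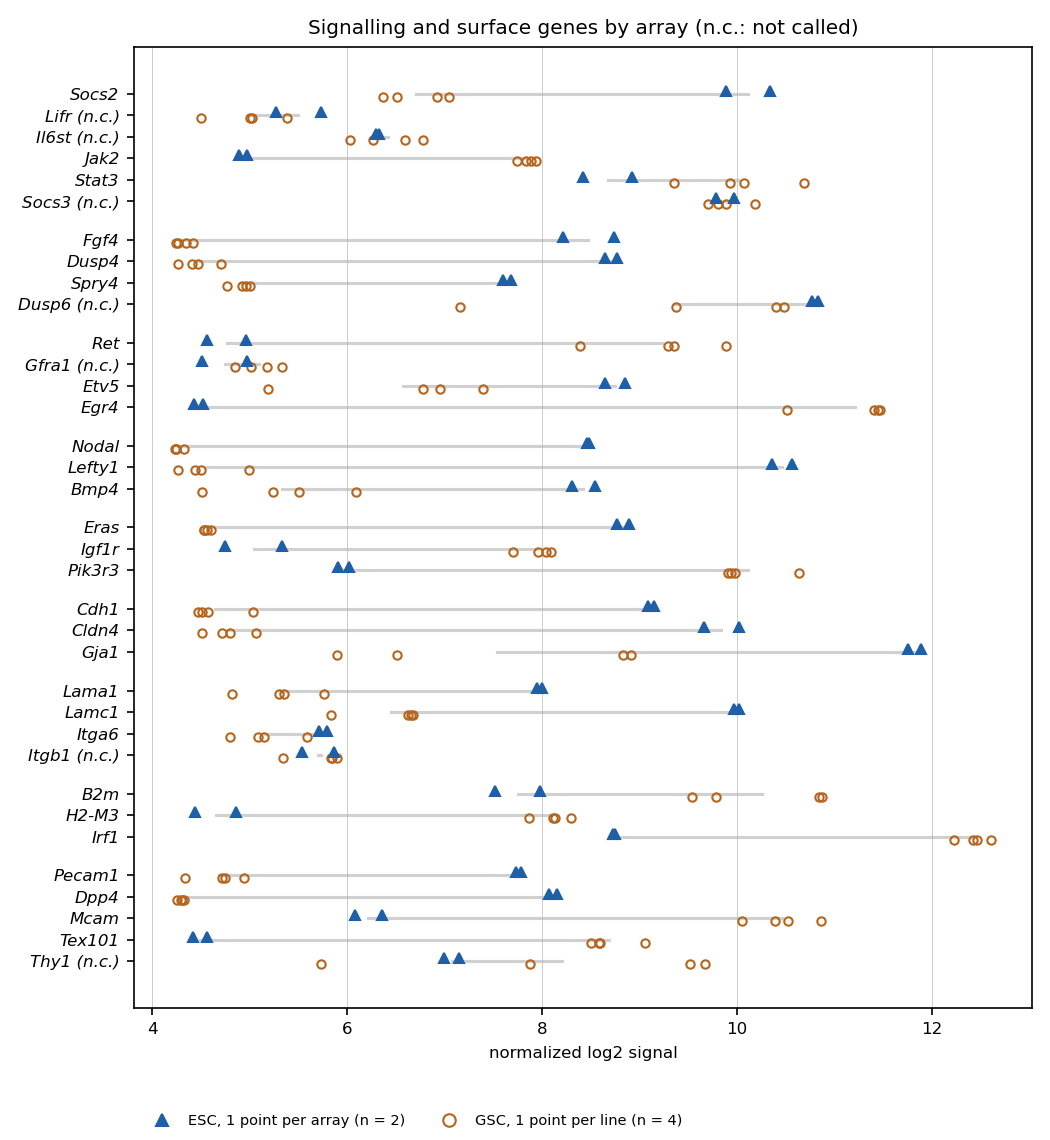
Normalized log2 signal of signalling and surface genes, with 1 triangle per ESC array and 1 circle per GSC line; n.c. marks genes that were not called. Ret, Igf1r, B2m and Mcam lie lower in ESC, Fgf4, Nodal, Eras and Cdh1 lie higher, and Lifr, Il6st, Socs3, Gfra1 and Itgb1 overlap.

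Of 198 tested chromatin genes, 71 were higher in ESC, 47 lower and 80 not called (median 0.08). Median scaling turned this balance, with 45 higher and 75 lower (median -0.17). Among the 198 genes, 1 was called higher and detected on both ESC arrays and on no GSC array. Another 9 were called lower and detected on all GSC arrays and no ESC array. Over all 9488 genes these counts were 280 and 703. Genes of DNA methylation were higher in 7 of 18 cases and lower in 4 (7 and 7 with median scaling). Besides Dnmt3l, the de novo methyltransferase Dnmt3b was higher, at 12.63 and 12.31 against 11.19, 10.79, 11.27 and 10.68 (2.81-fold). The maintenance enzyme Dnmt1 was not called (-0.40 ± 0.19), though it passed as lower with median scaling. Its partner Uhrf1 was 1.67-fold higher, a call that was lost in 4 of 20 alternatives (adjusted p from 0.000574 to 0.0706 over them). Tdg, the glycosylase that removes oxidised methylcytosine, was 5.30-fold higher. Zbtb33 (Kaiso) and Mbd1, readers of methylated DNA, were 4.89-fold and 2.36-fold lower. Dnmt3a did not pass the detection filter, and Tet1 has no named probe here.

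Polycomb genes were higher in 12 of 27 cases and lower in 8, and the higher count was 5 without ESC 1 and 7 without ESC 2. Median scaling gave 7 higher and 10 lower. Ezh2, the H3K27 methyltransferase, was 10.48 and 10.08 in ESC and 7.96 to 8.45 in GSC, 4.21-fold higher. A further probe of Ezh2 differed by 1.24. Mtf2, an accessory subunit of the complex that holds Ezh2, was 3.17-fold higher. The chromobox readers differed in direction. Cbx7 was 8.45 and 8.09 in ESC and 6.52 to 6.84 in GSC, whereas Cbx2 was 6.47 and 6.62 against 7.81 to 8.58 and Cbx8 was undetected in ESC (at least 5.53-fold lower). The ring finger subunits divided too. Pcgf5 was 6.38-fold lower and Bmi1 at least 3.04-fold lower, while Pcgf6, a subunit of the variant complex known to silence germline genes in ESC, was 1.94-fold higher. The Pcgf6 call was lost in 1 of 20 alternatives (adjusted p from 0.0048 to 0.0878 over them), without ESC 1.

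Remodelling genes were higher in 16 of 36 cases and lower in 7, and median scaling gave 10 and 11. Smarcad1, a helicase-like remodeller, was 9.86 and 9.91 in ESC and 6.78 to 6.82 in GSC, with no overlap. Smarca1 was 4.00-fold higher and the accessory subunit Smarcd3 3.19-fold lower. Of the SWI/SNF ATPases, Smarca2 was 2.14-fold lower and Smarca4 was not called, though it passed as lower with median scaling. Histone methylation genes were higher in 13 of 43 cases and lower in 10, and median scaling gave 8 and 18. The demethylases Kdm4c and Kdm6a were at least 7.98-fold and 3.32-fold higher, and Kdm1b, a demethylase known from oocytes, was 6.23-fold lower on its brightest probe and differed by -0.38 on another. Setdb1, Kdm3a and Kdm5b were not called, though Setdb1 passed as lower with median scaling. Further probes of Kdm3a differed by 1.04 ± 0.28 and 0.76 ± 0.33, against 0.12 ± 0.26 on its brightest probe. In acetylation 11 of 41 genes were higher and 11 lower, and median scaling moved this to 6 and 22. Sap30, a subunit of the Sin3 deacetylase complex, was 5.36-fold higher and the acetyltransferase Kat6b 5.02-fold higher. A further probe of Kat6b differed by 1.33. Brdt, a bromodomain protein of the testis, was 8.35 to 9.09 in GSC and undetected in ESC, at least 11.2-fold lower. Histone variants and chaperones were higher in 12 of 34 cases and lower in 7. The lower count was 3 without ESC 1 and 3 without ESC 2, and median scaling gave 7 higher and 7 lower. Anp32a and Anp32e, acidic proteins of which the second removes H2A.Z, were 10.7-fold and 9.12-fold higher, and Hmgn3, a nucleosome-binding protein, was 4.99-fold lower. Further probes of Anp32a differed by 1.79 and 1.78.

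Of 165 tested surface genes, 42 were higher, 39 lower and 84 not called (49.1% called), and median scaling gave 33 and 55. Junction genes were higher in 14 of 30 cases and lower in 6 (11 and 8 with median scaling). Cdh1, E-cadherin, was 9.08 and 9.14 in ESC and 4.51, 5.04, 4.58 and 4.47 in GSC, at least 18.7-fold higher (adjusted p = 4.44e-07). Cldn4, a tight junction claudin, was at least 30.2-fold higher. Epcam has no named probe here and Cdh2 did not pass the detection filter. In the integrin and matrix list 15 of 47 were higher and 5 lower, and median scaling gave 10 and 10. Without GSC 1 and GSC 3, 20 were higher, and without GSC 4, 13 were higher and 12 lower. The laminin chains Lama1 and Lamc1 were at least 6.21-fold and 11.7-fold higher, at a mean of 7.97 for Lama1 and at 9.97 and 10.02 for Lamc1 in ESC. Itga6, a laminin receptor chain used to enrich spermatogonial stem cells, was 5.71 and 5.80 against 4.80 to 5.59, a small difference whose call was lost in 13 of 19 alternatives (adjusted p from 0.00956 to 0.474 over them). Itgb1 was not called. Fbln1, a matrix protein, was 3.11-fold lower, with a further probe at -0.56.

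Genes of MHC class I and antigen presentation were lower in ESC in 11 of 22 cases, and 1 was higher. The lower count was 10 to 12 without ESC 1, without ESC 2 or without GSC 4, and 11 without GSC 1 and GSC 3. B2m, the light chain of class I molecules, was 10.84, 9.78, 10.87 and 9.54 in GSC and 7.52 and 7.98 in ESC, 5.69-fold lower (adjusted p = 0.00047), and a further probe fell by 2.57. H2-M3, a nonclassical class I heavy chain, was at least 7.68-fold lower. Irf1, an interferon-response factor that drives class I genes, was 12.22 to 12.61 in GSC and 8.72 and 8.75 in ESC, and all of its 4 further probes were lower. Members chosen after their values were seen were the proteasome activators Psme1 (-2.46) and Psme2 (-2.30), the immunoproteasome subunit Psmb10 (-2.25) and the peptide transporter Tap2 (-1.80). The heavy chains H2-D1 and H2-K1 and the transporter Tap1 did not pass the detection filter. Calr, the 1 higher gene, is a general chaperone of the endoplasmic reticulum, and its call was lost in 6 of 20 alternatives (adjusted p from 0.00012 to 0.126 over them).

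Among stem cell antigens 8 of 32 were higher and 8 lower (7 and 11 with median scaling). Pecam1, an adhesion molecule used to sort ESC, was at least 7.42-fold higher (a further probe differed by 1.17) and Dpp4 (CD26), a surface peptidase, at least 9.58-fold higher. Mcam (CD146) was 10.05 to 10.86 in GSC and 6.36 and 6.08 in ESC, 18.9-fold lower, with further probes at -3.08 and -3.33. Tex101, a germ cell surface glycoprotein, was at least 11.5-fold lower. Cd9, found on both cell types, was 10.52 and 10.41 against 10.58 to 10.81 and was not called. Thy1, used to sort both spermatogonial stem cells and fibroblasts, was 9.52, 7.88, 9.67 and 5.73 over the GSC lines and was not called. It passed as lower without GSC 4, but its difference changed sign without GSC 1 and GSC 3. Receptors were higher in 3 of 25 cases and lower in 7 (3 and 12 with median scaling). Ngfr and Tnfrsf21 were at least 5.25-fold and 6.55-fold higher, and Il13ra1 and Pdgfra at least 7.77-fold and 3.08-fold lower. A further probe of Tnfrsf21 differed by 1.92. Pdgfra varied over GSC lines much like the mean of the fibroblast list, of which it is a member, at 7.44, 6.60, 7.52 and 5.57. In the Eph list only Epha2 was higher (at least 7.67-fold), with Ephb1 and Efna1 lower and 7 of 10 not called. The Efna1 call was lost in 4 of 19 alternatives (adjusted p from 0.00591 to 0.162 over them).

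Relatives within a gene family were set side by side. Of 49 families with at least 2 tested members, 15 had members called in opposite directions, among them 7 of 16 metabolic families, 5 of 16 chromatin families, 2 of 10 signalling families and 1 of 7 surface families. With 24.9% of all genes higher and 29.7% lower, unrelated genes are also called in opposite directions, and the share among them was not computed, so the count is a description. Ldhc, the lactate dehydrogenase of the testis, was 7.87, 8.95, 7.91 and 6.86 in GSC and 5.71 and 5.88 in ESC, opposite to Ldha. Aldoc, the brain-type aldolase, was 3.99-fold lower while Aldoa, the general form, was 5.06-fold higher. Pfkm was 2.48-fold lower on its brightest probe, with other probes at 0.07 and -0.72, while Pfkp was higher by 2.25 ± 0.72. Among differentiation inhibitors, Id1 and Id2 were higher and Id4, a marker of spermatogonial stem cells, was at least 2.42-fold lower. Gja1, connexin 43, was 19.4-fold higher, and 3 other connexins (Gja4, Gjb2 and Gjc1) were lower. Several of these pairs rested on small differences. The Hk1 call was lost in 1 of 19 alternatives (adjusted p from 0.000804 to 0.136 over them). That of Shmt2 was lost in 5, that of Pik3cb in 2 and that of Atp5g2 in 7. The calls of Pcgf2, Shmt1 and Gjc1 were lost in 14, 12 and 10 of 20 alternatives. At least 1 alternative also ended the calls of Atp5g1, Pfkp, Pik3ca, Pik3cd, Phc2, Hdac2, Pcgf1, Pcgf3 and Pcgf6. In 6 families (lactate dehydrogenase, aldolase, pyruvate dehydrogenase kinase, the Id proteins, the chromobox readers and the Baf60 subunits) every member called in either direction kept its call under all alternatives.

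**Figure D5:**
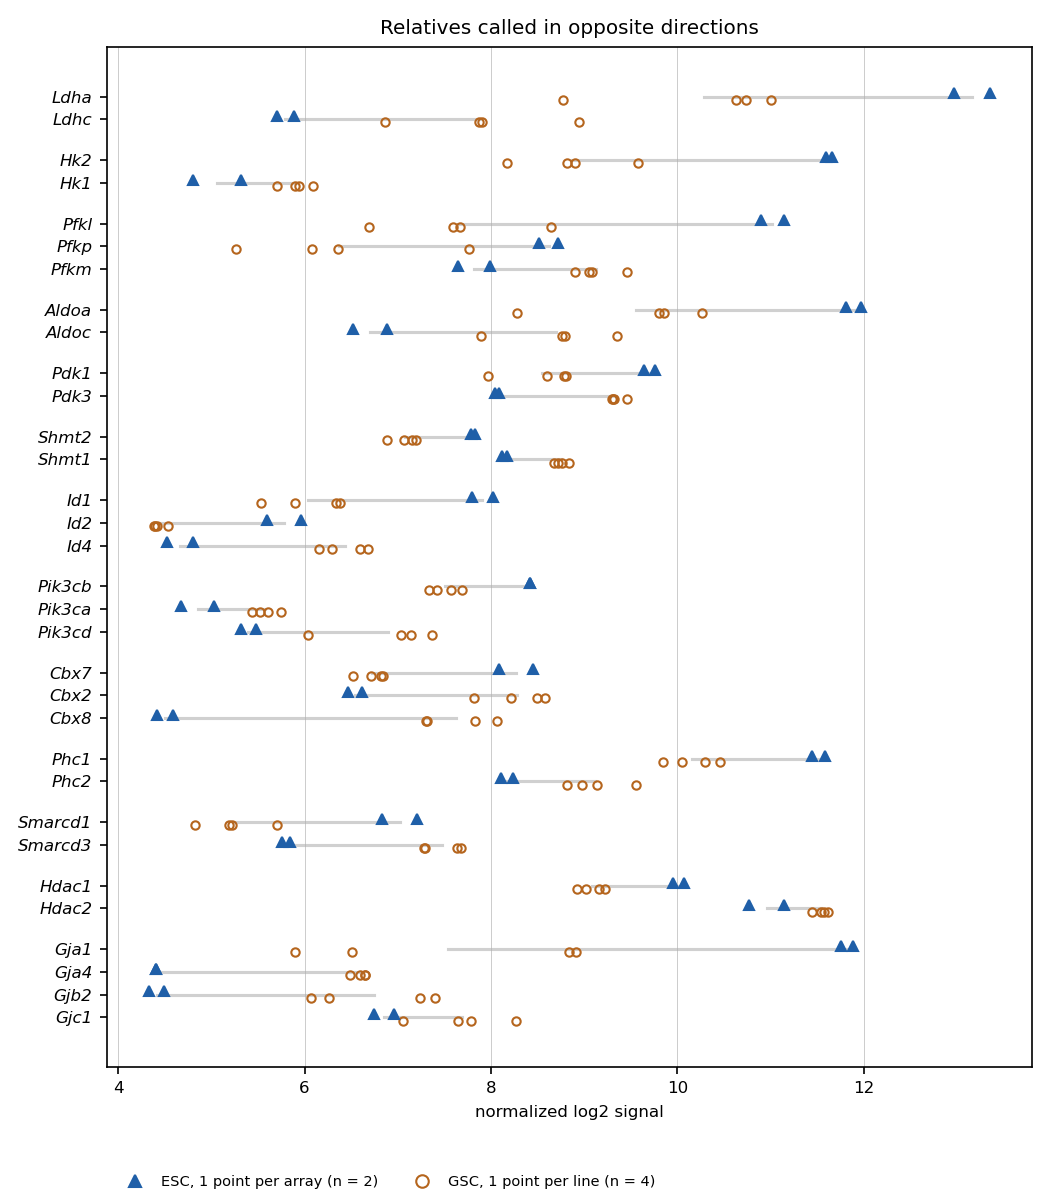
Normalized log2 signal of related genes called in opposite directions, grouped by family, with 1 triangle per ESC array and 1 circle per GSC line. In each of the 13 families drawn at least 1 member lies higher in ESC and at least 1 lower, as for Ldha and Ldhc, Cbx7 and Cbx8, and Gja1 and Gja4.

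Markers of other cells varied among the GSC arrays. The 17 tested fibroblast and feeder genes had mean signals of 7.90, 6.26, 7.82 and 5.37 on GSC 1 to 4 and 6.51 and 6.42 on the ESC arrays, so the ESC arrays lay inside the GSC range. Of these genes, 2 were higher in ESC and 3 lower, but 6 were higher without GSC 1 and GSC 3 and 9 were lower without GSC 4. Col1a2 and Col3a1, which define fibroblasts, did not pass the detection filter, and Col1a1 (5.36 to 8.33 in GSC) was not called, but passed as lower without GSC 4. Acta2, smooth muscle actin, was 10.72 and 10.53 in ESC and 5.06 to 7.95 in GSC. The part of such cells in the matrix, adhesion and Pdgfra results was not tested. Of 5 tested blood cell genes, the lysozymes Lyz1 and Lyz2 were lower in ESC, with 11.22, 8.23, 11.26 and 10.13 for Lyz1 in GSC, while Ptprc, Itgam and Adgre1, which define blood cells and macrophages, did not pass the filter. Laptm5, a lysosomal protein of blood cells, was 19.5-fold higher in ESC. Of 11 tested meiosis genes, 9 were lower in ESC, led by the cohesin Smc1b (at least 22.6-fold). The list mean was highest on GSC 4 (7.54, against 6.78 to 6.91 on the others). Stra8, a gene of this list that marks entry to meiosis, was detected on 3 GSC arrays and not called, with GSC 4 highest (6.84). Of the Sertoli and Leydig cell lists only 4 genes were tested, and Amh, Sox9, Fshr and Cyp11a1 did not pass the filter. Rhox5 and Inhbb of this list were higher in ESC, and Wt1 was lower. The Inhbb call was lost in 2 of 19 alternatives. Trophoblast markers Krt8 and Cdx2 were at least 5.55-fold and 2.19-fold higher, at 7.39 and 7.31 and at 5.81 and 6.15 in ESC, and the endoderm factor Gata6 was not called. Sox17 did not pass the filter.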

How the data were processed

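RNA was measured on 9 arrays with 25697 probes each. Per the file headers, each deposited value is a probe intensity that was not normalized between arrays, with a detection p-value from the authors' software for each. The authors' deposited processed values are on a log2 scale (base inferred from their maximum) and served as an alternative. BeadStudio 3.2, RMA and lumi appear in the submitters' processing notes, without a role. neqc (offset 16) corrected the background, normalized by quantiles and took log2, as part of limma 3.58.1 in R 4.3.3. Probes with a detection p under 0.01 on at least 2 of 9 arrays were kept (12695), and each gene was represented by its brightest probe (9488 genes, 738 unnamed). Symbols came from the platform table, in which 1719 probes are not named. A limma model with a mean per group on all 9 arrays gave ESC minus GSC, with Benjamini-Hochberg adjustment over all genes, and was tested on simulated data. Members and lists (40 lists, 929 tested genes) were chosen with earlier results of these data known. Genes named are the 12 largest differences in each direction, the 2 largest of each list in each direction (called, no overlap), key genes of each list, and relatives called in opposite directions. Others were chosen after their values were seen. Alternatives covered background, scaling, filters, probes, the fit, the spread, the replicate block and left-out arrays. The sources used here do not say that numbers 1 and 2 of the ESC duplicate and of the GSC lines pair samples. Tables and figures used Python 3.11.15 and matplotlib 3.10.9.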

Additional observations from a re-analysis of the deposited data

Results flagged for a closer look

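In 27 of the 243 named genes, 1 of the 4 GSC arrays stood apart from the other 3 by Dixon's 95% criterion, which chance alone meets in about 1 of 20 groups. GSC 4 was that array for 16 genes and GSC 2 for 5. GSC 1 was for 4 and GSC 3 for 2. Values are normalized log2 signals with the range of the other GSC lines.

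GSC 4 lay below the other lines for Asz1 (10.29, others 10.99 to 11.08), Tpi1 (8.27, others 9.70 to 9.97) and Ldha (8.77, others 10.63 to 11.01). It was also below them for Dctd (10.21, others 10.82 to 10.90), Chd4 (9.01, others 9.84 to 9.98) and Hdac7 (6.37, others 7.39 to 7.52). The same held for Lamc1 (5.83, others 6.62 to 6.67), Itgb1 (5.34, others 5.83 to 5.90) and Acta2 (5.06, others 7.46 to 7.95). The mean signal of the fibroblast list, which includes Acta2, was lowest on the same array (5.37, against 6.26 to 7.90). The part of such cells in these values was not tested. GSC 4 lay above the other lines for Notch1 (5.35, others 4.91 to 4.98), Stra8 (6.84, others 4.58 to 4.91) and Tdg (6.57, others 6.26 to 6.28). So it did for Pcgf5 (12.08, others 11.78 to 11.83), Kdm4c (4.87, others 4.52 to 4.58), Smc1b (10.30, others 9.40 to 9.49) and Tex11 (9.95, others 9.38 to 9.42). The mean of the meiosis list was highest on that array (7.54), but Smc1b, Tex11 and Stra8 are members of that list and enter its mean. GSC 1 stood apart for Nanog (4.57, others 4.42 to 4.44), Pdk3 (9.46, others 9.30 to 9.32), Nodal (4.33, others 4.24 to 4.25) and Rarg (7.06, others 6.49 to 6.57). Nanog, Nodal and Kdm4c were detected on no GSC array, so their values lie near background. GSC 2 stood apart for Egr4 (10.51, others 11.41 to 11.46), Ndufa13 (12.78, others 12.99 to 13.04), Stat5a (6.60, others 6.33 to 6.35), Tcf7l1 (8.42, others 8.03 to 8.08) and Pik3r3 (10.64, others 9.91 to 9.98). GSC 3 stood apart for Rdh11 (5.10, others 5.45 to 5.50) and Il13ra1 (7.92, others 8.15 to 8.20).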

How the results depend on the processing

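The counts of genes higher and lower in ESC (2358 and 2814) stayed within 1.5 times under most alternatives. Exceptions were median scaling, with 1483 higher (3915 lower), a minimum difference of 1 on the log2 scale, with 1466 higher and 1731 lower, and detection on all 9 arrays, with 1730 lower. Leaving out each array in turn gave 1687 to 2387 higher and 2028 to 2875 lower. With the ESC arrays averaged to 1 sample, which is assumed to vary like the other groups, 1635 were higher and 2042 lower. GSC 1 and GSC 3 averaged gave 2154 and 2624, and leaving both out, an alternative chosen after seeing the data, gave 1911 and 2347. With line or replicate number as a replicate block the counts were 2173 and 2633. The labels do not say whether same-numbered arrays share a source. Deviations of same-numbered ESC and GSC arrays from their group means correlated at 0.06 and -0.04 across genes. The deviations of the ESC pair are equal and opposite by construction, so these values cannot decide it. Of 243 named genes, 192 kept their side of the threshold in every one of the 20 alternatives that tested them. Direction was followed for called genes only, and some genes that were not called, such as Itgb1 and Sirt1, changed sign. Over genes and alternatives, 166 calls were lost, 31 were gained and none reversed. Of the lost calls, 24 came with the ESC arrays averaged, 24 without ESC 1 and 22 without ESC 2, settings with fewer ESC samples, and 18 without both GSC 1 and GSC 3. Signal near background limits the genes given as bounds: their size is a minimum set by the lowest detected signal.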
